A study of Mus musculus with 9 samples.

Results

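The genes described here are named as subunits of ion channels and were taken as every mouse gene whose symbol starts with Kcn or Cacn, or is Scn with a number and a or b, or is Clcn with a number. Cacna1s, Cacna1c, Cacnb1 and Cacng1 were left out of the group, and their values are given separately. The rule found 122 genes among the 18193 genes with a probe set of a single symbol, and the probe set with the highest mean over the 9 arrays stood for each gene. The symbol rule also takes in 3 antisense or overlapping transcripts that encode no subunit, Kcnq1ot1, Kcnmb4os1 and Kcnmb4os2, named after their values were seen. RNA was measured in 3 groups of mouse cells with 3 biological replicates each. CiCM are cardiomyocyte-like cells made from fibroblasts with 6 small molecules and no added gene, picked as beating clusters on day 24. The 6 agents were CHIR99021 at 10 µM, RepSox at 10 µM, Forskolin at 50 µM, VPA at 0.5 mM, Parnate at 5 µM and TTNPB at 1 µM. CHIR99021 inhibits glycogen synthase kinase, RepSox the TGF-beta receptor kinase, VPA histone deacetylases and Parnate monoamine oxidases and a histone demethylase, while Forskolin raises cyclic AMP and TTNPB activates retinoic acid receptors. CM are cardiomyocytes taken from mouse hearts, whose age the labels do not give. MEF are the embryonic fibroblasts, from C57BL/6 embryos at embryonic day 13.5, that were the starting cells of the CiCM. The beating clusters were selected, so the CiCM arrays do not show the treated culture as a whole.

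Voltage-gated channels open when the membrane potential shifts, and each is built of a pore, which passes the ion, and of auxiliary subunits, which set where the pore goes and how fast it opens and closes. In the working heart, sodium channels start the action potential, L-type calcium channels carry the plateau that triggers contraction, and several potassium currents end it. The potassium currents of heart muscle include a transient outward current, a rapid and a slow delayed rectifier, an inward rectifier that holds the resting potential, and currents gated by acetylcholine or by ATP. Skeletal muscle uses other pore and auxiliary genes, among them fast delayed rectifiers of the Kcnc family and gamma subunits of the calcium channel. Fibroblasts and smooth muscle are known for calcium-activated potassium channels.

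The start regions of 4 channel genes are shown because these genes are among those whose differences, described below, most set the CiCM or the CM apart from both other groups. Kcnc4 and Cacng6 were highest in CiCM, and Kcnip2 and Kcnj5 were highest in CM. Each sequence runs 5′ to 3′ on the gene's strand from 250 bases before to 50 bases after the start of the RefSeq transcript, on GRCm38.p6. Capitals mark matches, on either strand, to an E-box (CANNTG), a MEF2-type site (TAAAAATA), a GATA-type site (AGATAA) or a GC-box (GGGCGG).
Kcnc4, chr3:107458849-107459148, minus strand: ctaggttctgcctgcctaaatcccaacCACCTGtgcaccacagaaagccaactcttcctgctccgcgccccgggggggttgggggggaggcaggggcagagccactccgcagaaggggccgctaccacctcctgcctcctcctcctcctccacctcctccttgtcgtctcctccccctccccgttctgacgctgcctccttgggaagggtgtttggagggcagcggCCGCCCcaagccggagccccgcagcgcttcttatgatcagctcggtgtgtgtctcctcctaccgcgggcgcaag
Cacng6, chr7:3424412-3424711, plus strand: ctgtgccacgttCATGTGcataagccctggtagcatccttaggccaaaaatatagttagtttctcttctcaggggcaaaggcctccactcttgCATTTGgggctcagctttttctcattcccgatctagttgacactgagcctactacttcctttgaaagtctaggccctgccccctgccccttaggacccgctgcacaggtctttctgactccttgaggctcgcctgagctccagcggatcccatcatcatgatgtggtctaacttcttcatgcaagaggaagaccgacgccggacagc
Kcnip2, chr19:45816014-45816313, minus strand: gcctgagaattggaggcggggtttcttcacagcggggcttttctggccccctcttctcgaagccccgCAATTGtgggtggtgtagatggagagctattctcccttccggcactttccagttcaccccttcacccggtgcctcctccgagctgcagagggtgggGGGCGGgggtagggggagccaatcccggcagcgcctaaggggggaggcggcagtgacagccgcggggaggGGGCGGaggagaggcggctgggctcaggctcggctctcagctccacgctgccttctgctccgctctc
Kcnj5, chr9:32344295-32344594, minus strand: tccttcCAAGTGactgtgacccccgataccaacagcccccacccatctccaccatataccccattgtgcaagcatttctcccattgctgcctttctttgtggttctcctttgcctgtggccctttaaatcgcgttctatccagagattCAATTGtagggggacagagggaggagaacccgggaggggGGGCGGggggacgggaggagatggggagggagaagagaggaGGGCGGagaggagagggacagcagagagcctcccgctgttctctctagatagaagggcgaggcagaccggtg
The Kcnc4 window held 1 E-box and 1 GC-box, on the strand opposite to the one printed, and the Cacng6 window held 2 E-boxes. The Kcnip2 window held 1 E-box and 2 GC-boxes, and the Kcnj5 window 2 of each. No match of one motif overlapped a match of another in these windows. Over 32851 windows of this length from the RefSeq table, 72.3% held an E-box, 35.7% a GC-box, 11.2% the GATA-type letters and 2.72% the MEF2-type letters. The 61 windows of the 43 tested channel genes that the table covers held them in 75.4%, 44.3%, 3.28% and 3.28%. A match is a run of letters, and binding was not measured.

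Signals are the deposited log2 values, in which a difference of 1 is a doubling of the signal, and they are compared only for the same gene across arrays. Array medians lay between 6.37 and 6.85. Correlations between the arrays of a group were taken over the genes whose highest group mean reached the median of the table. They were 0.965 to 0.969 for CiCM, 0.930 to 0.953 for CM and 0.971 to 0.975 for MEF. In atrial genes CM replicate 1 differed from the 2 remaining CM arrays: Sln read 14.95, 8.14 and 2.97 on CM replicates 1 to 3, and Myl7 read 15.05, 9.25 and 5.98. Adipoq, an adipocyte gene, read 13.50, 6.21 and 5.09 on the same arrays. Against MEF, CiCM had 13 of 13 skeletal muscle markers higher, and their summed linear signal was 168233 to 189115 on CiCM arrays, 634 to 692 on CM arrays and 390 to 415 on MEF arrays. Heart muscle markers summed to 10551 to 12571 on CiCM arrays, 293619 to 322242 on CM arrays and 516 to 707 on MEF arrays, with 6 of 13 higher in CiCM and 13 of 13 higher in CM, each against MEF. In CiCM 5 of these 13 markers reached the median of the table in the group mean. Myh6 and Myh8 were each listed at 0 on a MEF array. Endothelial markers summed to 344 to 435 on CiCM arrays, 12607 to 14455 on CM arrays and 437 to 674 on MEF arrays, and 6 of 6 were higher in CM than in MEF. Fibroblast markers summed to 57877 to 64814 on CiCM arrays, 10230 to 13244 on CM arrays and 76754 to 79512 on MEF arrays. These are bulk samples, in which more cells of a type and more RNA of a gene per cell cannot be told apart.

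Of the 122 channel genes, 60 reached the median of the table, 6.58, in the mean of at least one group and were tested. The other 62 read between 0 and 7.14 on single arrays, with no group mean above 6.53. Kcnq1ot1 was the only one of the 3 antisense or overlapping transcripts that was tested, and its differences were not called with its chosen probe set. With the mean over its probe sets, Kcnq1ot1 was called 1.70 higher in CM than in MEF and fell by 1.05 in CiCM relative to CM. Nearest to the line, Kcna4 and Cacna1d stayed below it with highest group means of 6.43 and 6.53, while Kcnn4 and Kcnj6 passed with 6.71 and 6.72. Differences were tested with limma; calls needed both a log2 difference of at least 1 and an adjusted p, over all 12559 tested genes, under 0.05.

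CiCM had more of some channel RNAs than MEF and less of others: 17 of the 60 tested genes were higher and 11 were lower. Over all tested genes 11.6% were called higher and 12.2% lower, against 28.3% and 18.3% of the tested channel genes. Between CM and MEF, 26 were higher and 11 lower in CM, or 43.3% and 18.3%, against 22.1% and 21.8% of all tested genes. Between CiCM and CM, 16 were higher and 22 lower in CiCM, or 26.7% and 36.7%, against 16.5% and 19% of all tested genes. A gene that passed the line only through its high group had to differ, so these shares describe the genes that passed and not the whole group. With no line, over all 122 genes, CiCM against MEF gave 17 higher and 12 lower, or 13.9% and 9.84%, against 8.52% and 8.76% of all 18193 genes. The same counts were 30 and 15 for CM against MEF, or 24.6% and 12.3% against 16.7% and 15.7% of all genes. For CiCM against CM they were 17 and 27, or 13.9% and 22.1% against 12% and 14.2% of all genes. The median difference of the 122 genes was 0.0034 for CiCM minus MEF, 0.57 for CM minus MEF and -0.25 for CiCM minus CM, against -0.0024, 0.095 and -0.097 over all 18193 genes.

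Leaving out CM replicate 1 gave 17 higher and 11 lower between CiCM and MEF, 27 and 12 between CM and MEF, and 14 and 22 between CiCM and CM. Higher genes made up 48.6% of all calls between CiCM and MEF, 50.4% between CM and MEF and 46.5% between CiCM and CM, while levelling on the hybridisation controls gave 35.4%, 22.1% and 74.5%, and centring on array medians gave 45.3%, 35.1% and 62.4%. Levelling moved the median of all tested genes by -0.23, -0.80 and 0.58 and centring by -0.06, -0.37 and 0.31, in the same order. The tested channel genes then split 15 higher to 11 lower, 23 to 17 and 20 to 19 under levelling, and 16 to 11, 25 to 15 and 17 to 22 under centring. No called channel gene changed sign under any alternative that was run. Of the called genes, only Kcng2, for CiCM against MEF, and Kcnd1, for CM against MEF, had arrays of both groups that overlapped.

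**Figure D1:**
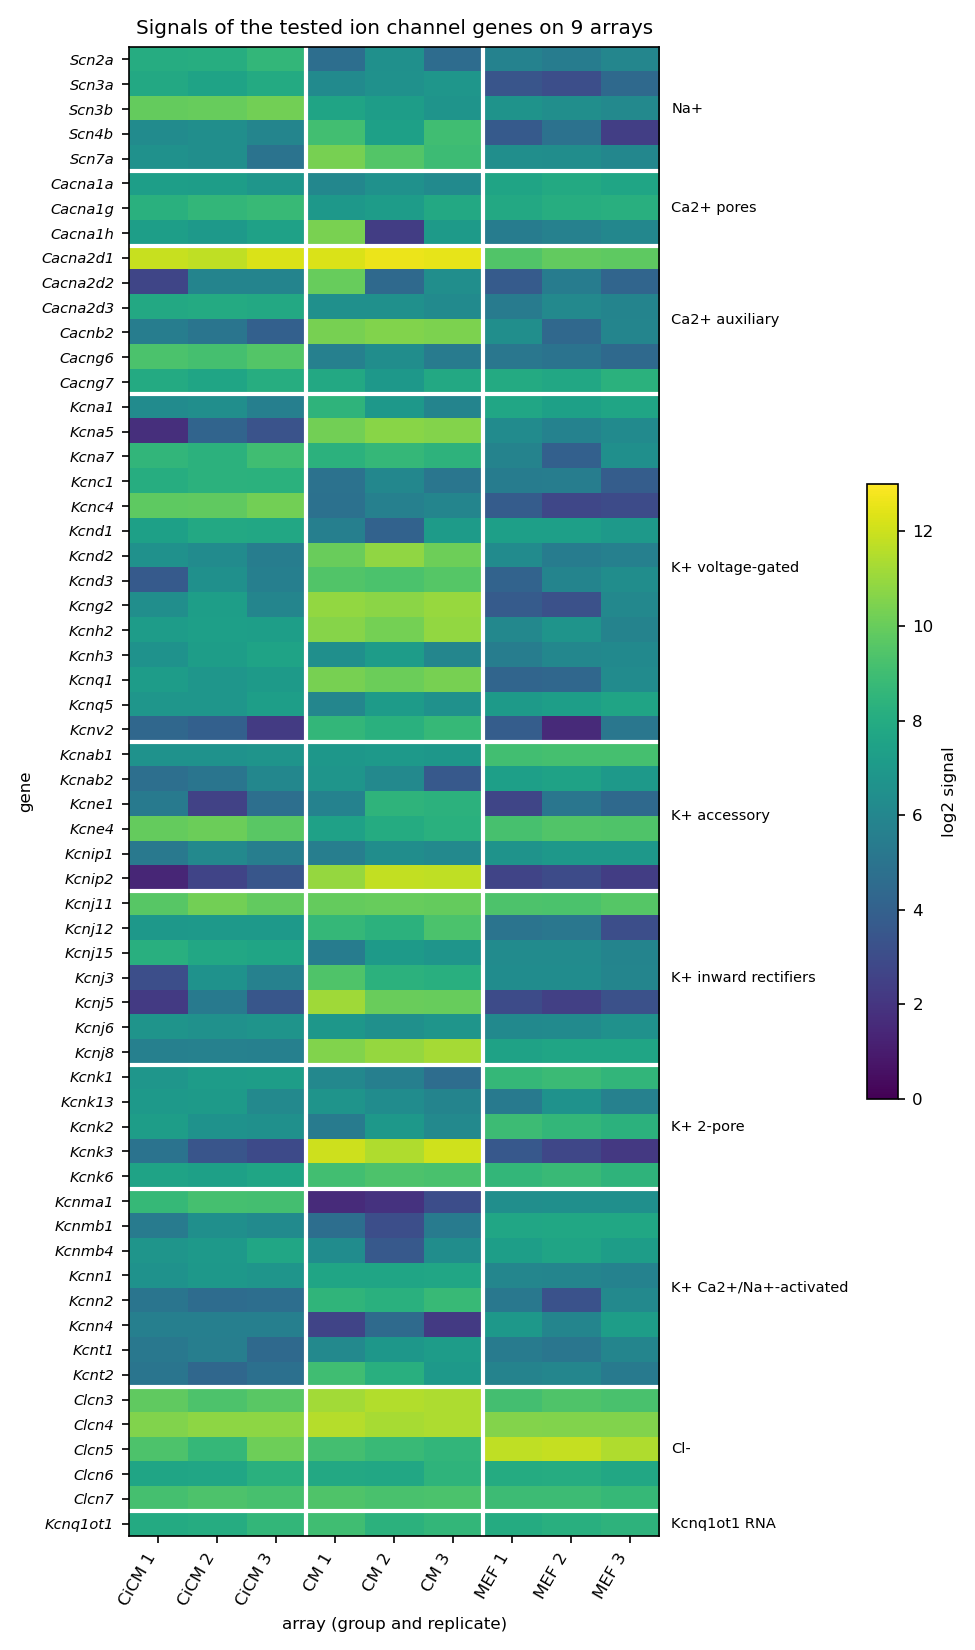
Log2 signal (colour) of the 60 tested channel genes (rows, by family) on the 9 arrays (columns, 3 CiCM, 3 CM and 3 MEF). Among the voltage-gated potassium genes the CM cells of Kcnd2, Kcnd3, Kcng2, Kcnh2 and Kcnq1 are bright, while those of Kcnh3 are not, and CM replicate 2 is dark for Cacna1h, at 2.34.

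**Figure D2:**
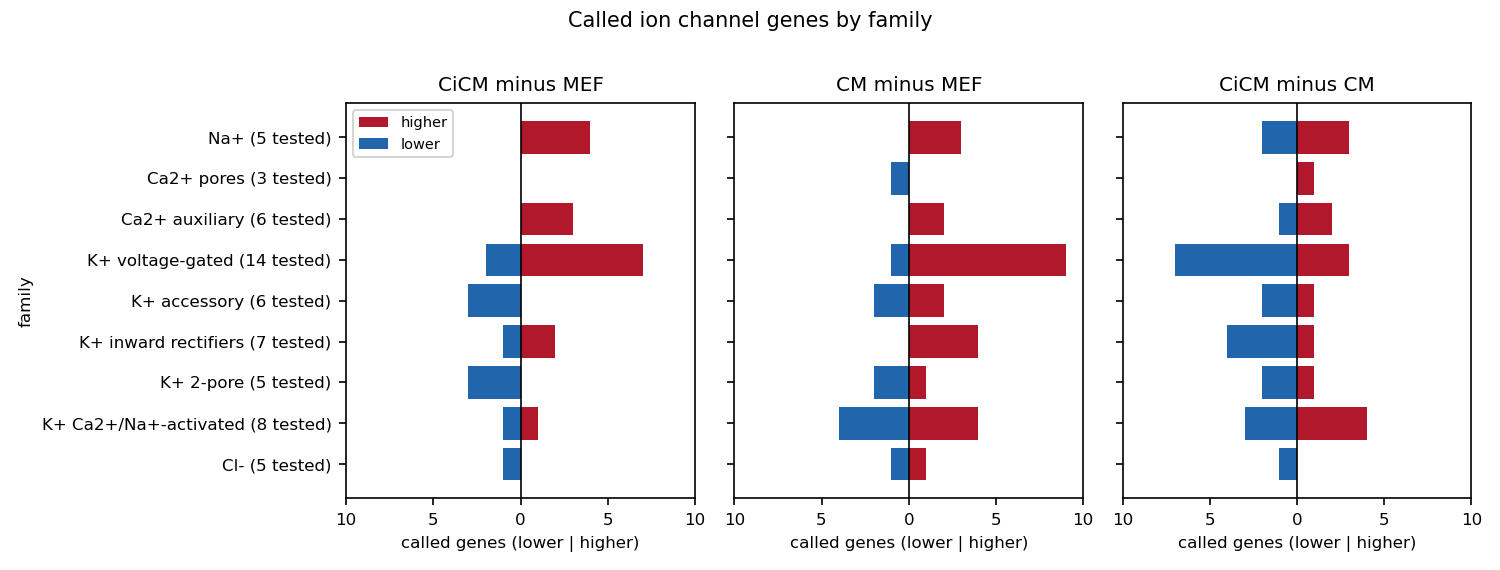
Number of called channel genes in each family, higher to the right and lower to the left of 0, for CiCM minus MEF, CM minus MEF and CiCM minus CM; the number tested stands beside each family. Voltage-gated potassium channels had the most tested genes, 14, and the most calls in each comparison. Of these, 7 were higher in CiCM than in MEF, 9 higher in CM than in MEF and 7 lower in CiCM than in CM. By share of tested genes they did not lead, as sodium channels had 4 of 5 higher in CiCM than in MEF, among 11 measured. Scn2a and Scn3a passed the line only through CiCM, so that share describes the genes that passed.

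CiCM exceeded MEF in the RNA of 4 sodium channel genes, of 5 tested among 11 measured: the pores Scn3a and Scn2a and the beta subunits Scn3b and Scn4b. The pore genes Scn2a and Scn3a are known mainly from neurons. Scn3b, which changes the gating and surface level of the pore, read 9.92, 9.97 and 10.25 on CiCM arrays, 7.58, 7.24 and 6.73 on CM arrays and 6.70, 6.44 and 6.14 on MEF arrays. All CiCM arrays lay above all others, by 3.62 ± 0.25 (SE) over MEF (adjusted p = 9.42e-07) and 2.86 ± 0.25 over CM (adjusted p = 3.06e-06). Scn2a read 8.05, 8.12 and 8.62 on CiCM arrays, 4.70, 6.54 and 4.62 on CM arrays and 5.79, 5.45 and 5.96 on MEF arrays. It was again highest in CiCM, by 2.53 ± 0.51 over MEF (adjusted p = 0.00179) and 2.98 ± 0.51 over CM (adjusted p = 0.000434), while CM and MEF overlapped, except without CM replicate 2, where Scn2a was called 1.07 lower in CM than in MEF. Scn3a read 7.86, 7.55 and 7.96 on CiCM arrays, 6.22, 6.59 and 6.82 on CM arrays and 3.42, 3.11 and 4.46 on MEF arrays. The 3 groups did not overlap: Scn3a was 4.13 ± 0.45 higher in CiCM than in MEF and 2.88 ± 0.45 higher in CM than in MEF (adjusted p = 3.04e-05 and 0.000193). With 32 added to the linear signals, which damps low values, these differences were 2.48 and 1.47. The difference of 1.25 between CiCM and CM lost its call in 5 of the 9 fits that left out an array, with adjusted p up to 0.103. Neuron markers summed to 1311 to 1750 on CiCM arrays, 873 to 1471 on CM arrays and 2670 to 2868 on MEF arrays, with 7 of 13 tested, of which CiCM had 1 higher and 3 lower than MEF. The higher one was Nefm, by 1.99 (adjusted p = 0.0155), and the lower ones were Tubb3, Map2 and Gap43. The part of these markers in the sodium channel results was not tested.

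Scn4b, a beta subunit known in heart, read 6.27, 6.43 and 5.94 on CiCM arrays, 9.07, 7.38 and 9.01 on CM arrays and 3.67, 4.90 and 2.41 on MEF arrays. It was highest in CM, between the others in CiCM, and did not overlap between groups. The differences were 2.55 ± 0.66 for CiCM minus MEF (adjusted p = 0.00811), 4.83 ± 0.66 for CM minus MEF (adjusted p = 6.88e-05) and -2.28 ± 0.66 for CiCM minus CM (adjusted p = 0.0114). With 32 added the first was 1.18 and the second 3.08. The third lost its call with levelling on the hybridisation controls. Scn7a, an atypical member that senses sodium, was 3.35 ± 0.47 higher in CM than in MEF (adjusted p = 7.97e-05) and 3.62 ± 0.47 lower in CiCM than in CM (adjusted p = 5.89e-05).

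Among calcium channel subunits, the auxiliary genes Cacng6, Cacna2d1 and Cacna2d3 were higher in CiCM than in MEF, of 6 tested among 13 auxiliary genes, and Cacna2d1 and Cacnb2 were higher in CM than in MEF. Cacng6 is a gamma subunit known in skeletal muscle. Its RNA read 9.29, 9.16 and 9.54 on CiCM arrays, 5.68, 6.35 and 5.43 on CM arrays and 5.17, 4.95 and 4.45 on MEF arrays. CiCM stood alone, 4.47 ± 0.34 above MEF (adjusted p = 2.03e-06) and 3.51 ± 0.34 above CM (adjusted p = 7.12e-06). The CM and MEF arrays did not overlap, but the difference of 0.96 was under the minimum of 1. It passed, at 1.01 to 1.16, without MEF replicate 1 or 2 or CM replicate 1 or 3, and with the mean over probe sets, at 1.33. Cacnb2, the beta subunit that brings the cardiac L-type pore to the membrane, read 5.51, 5.03 and 4.0 on CiCM arrays, 10.34, 10.55 and 10.42 on CM arrays and 6.43, 4.41 and 5.93 on MEF arrays. Here CM stood alone, 4.85 ± 0.52 above MEF (adjusted p = 1.03e-05), and CiCM were 5.59 ± 0.52 below CM (adjusted p = 5.37e-06). CiCM and MEF overlapped, with a difference of -0.74, which without MEF replicate 2 was -1.33 and called (adjusted p = 0.0274). Cacna2d1, the alpha2delta subunit of L-type channels in both muscles, read 11.90, 11.78 and 12.29 on CiCM arrays, 12.27, 12.63 and 12.52 on CM arrays and 9.48, 9.85 and 9.78 on MEF arrays. CiCM and CM overlapped, and both lay above MEF, by 2.28 ± 0.15 and 2.77 ± 0.15 (adjusted p = 7.66e-07 and 6.09e-08). One of its other probe sets past the line differed in sign between CM and MEF, at -0.47, and with the mean over probe sets the differences from MEF were 1.33 for CiCM and 1.57 for CM. Cacna2d3, named after its values were seen, was 2.07 ± 0.29 higher in CiCM than in MEF (adjusted p = 0.000167).

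Of 7 pore genes in the group 3 were tested. Cacna1g, a pore of low-voltage-activated T-type channels, read 8.26, 8.63 and 8.78 on CiCM arrays, 6.91, 7.17 and 7.86 on CM arrays and 7.84, 8.12 and 8.22 on MEF arrays. CiCM lay 1.24 ± 0.26 above CM (adjusted p = 0.00165) and 0.50 above MEF, where the test was not passed (adjusted p = 0.13). Its difference of -0.74 between CM and MEF became -1.02, a call, without CM replicate 3. Cacna1a, the pore of neuronal P/Q-type channels, was 1.44 ± 0.26 lower in CM than in MEF (adjusted p = 0.00054), although another probe set past the line differed by 1.89 the other way. Cacna1h, the second T-type pore, read 7.30, 6.97 and 7.46 on CiCM arrays, 10.38, 2.34 and 7.06 on CM arrays and 5.45, 5.72 and 6.00 on MEF arrays. The 3 CM arrays ranged across both other groups, and its differences did not pass the test (adjusted p = 0.416, 0.613 and 0.718). Without CM replicate 2, CM lay 3.0 above MEF (adjusted p = 0.00685). Cacna2d2, named after its values were seen, spread in the same order in CM, at 9.98, 4.42 and 6.40, and was called higher in CM than in MEF without CM replicate 2, at 3.71 (adjusted p = 0.0266). CM replicate 1 was the highest CM array for both genes, as for the atrial genes. CM replicate 2 was the lowest CM array for Cacna1h and Cacna2d2, while Sln and Myl7 were lowest on CM replicate 3. The part of the atrial genes in this spread was not tested. Left out of the group by its rule, Cacna1s, the skeletal L-type pore, read 10.54, 10.53 and 10.97 on CiCM arrays, 7.20, 6.90 and 6.32 on CM arrays and 2.19, 5.47 and 3.83 on MEF arrays. Cacna1c, the cardiac L-type pore, read 8.06, 8.48 and 8.13 on CiCM arrays, 11.16, 11.38 and 11.58 on CM arrays and 8.61, 8.75 and 8.66 on MEF arrays. The skeletal pore was thus highest in CiCM and the cardiac pore highest in CM. The skeletal beta and gamma subunits Cacnb1 and Cacng1 averaged 10.18 ± 0.06 and 10.73 ± 0.07 in CiCM, 7.08 ± 0.06 and 5.39 ± 0.89 in CM and 6.44 ± 0.13 and 3.68 ± 0.85 in MEF (SD, n = 3 each).

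Of 31 voltage-gated potassium pore and modifier genes 14 were tested. In CiCM 7 were higher than in MEF and 2 lower, and the largest difference of any channel gene between CiCM and MEF was that of Kcnc4. Kcnc4 encodes a fast delayed rectifier found in skeletal muscle and neurons. Its RNA read 9.76, 9.83 and 10.23 on CiCM arrays, 4.87, 5.68 and 5.90 on CM arrays and 3.77, 2.74 and 2.95 on MEF arrays. CiCM lay 6.78 ± 0.43 above MEF (adjusted p = 5.71e-07) and 4.46 ± 0.43 above CM (adjusted p = 7.12e-06). CM lay 2.33 above MEF, a difference of 1.45 with the mean over probe sets and of 0.91 with 32 added, where the call was lost. Kcnc1, a related fast delayed rectifier, read 8.08, 8.36 and 8.31 on CiCM arrays, 4.89, 6.04 and 5.09 on CM arrays and 5.44, 5.51 and 3.82 on MEF arrays. CiCM were again alone, 3.33 ± 0.52 above MEF and 2.91 ± 0.52 above CM (adjusted p = 0.000377 and 0.000631), and CM and MEF overlapped. The skeletal muscle marker sums given above were highest on the same arrays as Cacng6, Kcnc4 and Kcnc1, and their part in these results was not tested. Kcna7, a Shaker-type pore known in both skeletal and heart muscle, read 8.57, 8.36 and 9.02 on CiCM arrays, 8.35, 8.68 and 8.41 on CM arrays and 5.82, 3.99 and 6.46 on MEF arrays. CiCM and CM overlapped, with a difference of 0.17 ± 0.51 between them, and both lay above MEF, by 3.22 ± 0.51 and 3.05 ± 0.51 (adjusted p = 0.000406 and 0.000312).

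**Figure D3:**
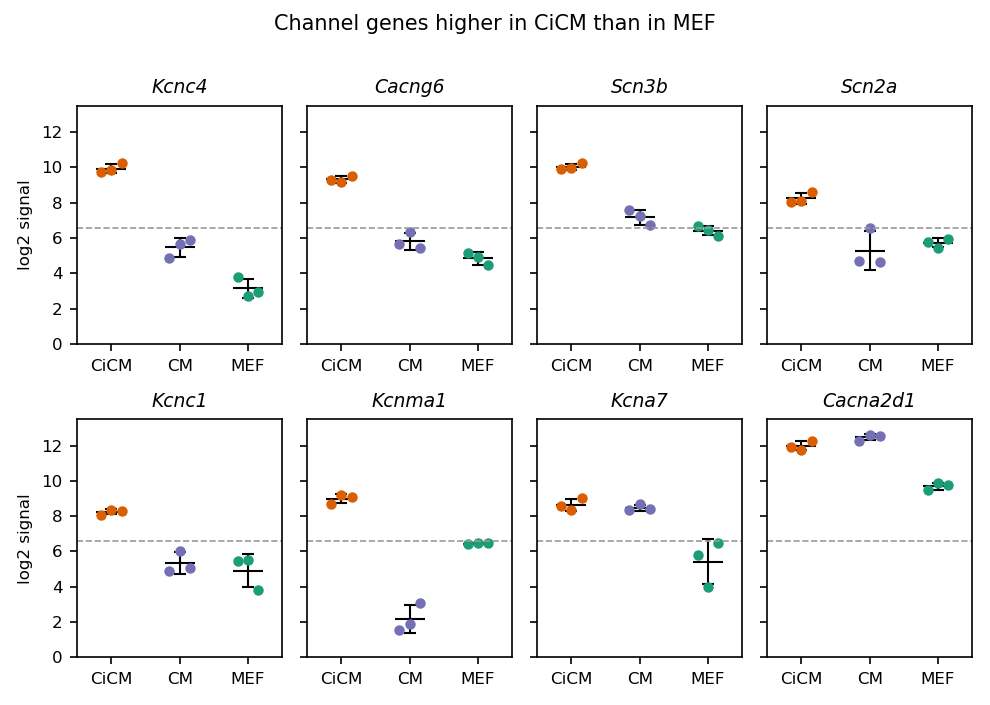
Log2 signal of 8 channel genes called higher in CiCM than in MEF, picked for display after their values were seen, on 3 CiCM, 3 CM and 3 MEF arrays (points), with group mean and SD (bars) and the line of 6.58 for testing (dashed). All CiCM arrays lie above all MEF arrays for these 8 genes, while for Kcna7 and Cacna2d1 the CM arrays lie beside those of CiCM.

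Potassium pores of the heart's repolarising currents were higher in CM, and CiCM lay between CM and MEF for some of them. Kcnh2, the pore of the rapid delayed rectifier, read 7.20, 7.32 and 7.30 on CiCM arrays, 10.63, 10.30 and 10.89 on CM arrays and 6.07, 6.75 and 5.83 on MEF arrays. CM lay 4.39 ± 0.25 above MEF (adjusted p = 7.59e-08) and CiCM 3.33 ± 0.25 below CM (adjusted p = 1.04e-06). CiCM lay 1.06 ± 0.25 above MEF (adjusted p = 0.00463). That call was lost without MEF replicate 1 or 3, at 0.99 and 0.86, and with 32 added, at 0.80. It was also lost with centring on array medians and with levelling on the hybridisation controls. Kcnq1, the pore of the slow delayed rectifier, read 7.20, 6.84 and 7.06 on CiCM arrays, 10.33, 10.09 and 10.34 on CM arrays and 4.22, 4.35 and 6.27 on MEF arrays. The 3 groups were apart, CiCM by 2.09 ± 0.46 over MEF (adjusted p = 0.00322; 1.30 with 32 added) and CM by 5.31 ± 0.46 over MEF (adjusted p = 1.9e-06). Its partner Kcne1 read 5.28, 2.56 and 4.73 on CiCM arrays, 5.78, 8.45 and 8.38 on CM arrays and 2.70, 5.12 and 4.46 on MEF arrays. CM were 3.44 ± 1.01 above MEF (adjusted p = 0.011; 2.15 with 32 added), a call lost without CM replicate 2, where the value was 2.99, and CiCM overlapped MEF. The call of Kcne1 for CiCM against CM was lost without CiCM replicate 2, CM replicate 2 or CM replicate 3, at -2.53, -2.89 and -2.92.

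The pores of the transient outward current, Kcnd2 and Kcnd3, were high on CM arrays only. Kcnd2 read 6.58, 6.29 and 5.51 on CiCM arrays, 10.01, 10.82 and 10.12 on CM arrays and 6.27, 5.44 and 5.65 on MEF arrays. Kcnd3 read 3.70, 6.51 and 5.59 on CiCM arrays, 9.48, 9.31 and 9.55 on CM arrays and 4.14, 5.86 and 6.36 on MEF arrays. For both, CiCM and MEF overlapped and CM lay above each. CM exceeded MEF by 4.53 ± 0.35 for Kcnd2 and 3.99 ± 0.71 for Kcnd3 (adjusted p = 7.83e-07 and 0.000482). CiCM were below CM by 4.19 ± 0.35 and 4.18 ± 0.71 (adjusted p = 2.46e-06 and 0.00044), and their differences from MEF were 0.34 and -0.19 (adjusted p = 0.44 and 0.848). With the mean over probe sets the Kcnd2 difference between CiCM and CM was -2.78. Kcnip2 encodes the calcium-binding subunit that pairs with these pores in the heart. Its RNA read 1.40, 2.68 and 3.50 on CiCM arrays, 10.92, 11.79 and 11.73 on CM arrays and 2.68, 2.98 and 2.37 on MEF arrays. CM were 8.80 ± 0.62 above MEF (adjusted p = 3.66e-07) and CiCM 8.96 ± 0.62 below CM (adjusted p = 6.22e-07), while CiCM and MEF overlapped at low signal. With the mean over probe sets the Kcnip2 differences were 5.73 for CM minus MEF and -4.73 for CiCM minus CM. Kcnd1, the third pore of this family, was not high in CM: it read 7.38, 7.82 and 7.79 on CiCM arrays, 5.63, 4.07 and 7.14 on CM arrays and 7.34, 7.36 and 6.98 on MEF arrays. It was 2.05 ± 0.61 higher in CiCM than in CM (adjusted p = 0.013; 1.28 without CM replicate 2). Its difference of -1.62 between CM and MEF was called with overlapping arrays and lost in 7 of 9 fits that left out an array, with values between -2.38 and -0.85.

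Kcna5, the pore of the ultra-rapid delayed rectifier of human atria, moved in opposite directions in CM and CiCM relative to MEF. It read 1.74, 4.18 and 3.32 on CiCM arrays, 10.24, 10.68 and 10.60 on CM arrays and 6.25, 5.75 and 6.24 on MEF arrays. The groups did not overlap, with MEF between the others. CiCM were 3.0 ± 0.54 below MEF (adjusted p = 0.000912; -1.25 with 32 added) and CM 4.43 ± 0.54 above MEF (adjusted p = 2.68e-05). Kcng2 and Kcnv2 are modifier subunits that conduct only when joined to other pores. Kcng2 read 6.44, 7.28 and 5.90 on CiCM arrays, 10.90, 10.75 and 11.00 on CM arrays and 3.73, 3.22 and 6.08 on MEF arrays. It was 6.54 ± 0.64 higher in CM than in MEF (adjusted p = 4.77e-06), and 2.20 ± 0.64 higher in CiCM than in MEF (adjusted p = 0.0144; 1.15 with 32 added) although one MEF array lay above the lowest CiCM array. This second call was lost without MEF replicate 1, MEF replicate 2 or CiCM replicate 2, at 1.89, 1.63 and 1.83. Kcnv2 averaged 3.52 ± 1.10 in CiCM, 8.53 ± 0.24 in CM and 3.52 ± 1.82 in MEF (SD, n = 3 each), and CM exceeded MEF by 5.01 ± 0.94 (adjusted p = 0.000669; 3.07 with 32 added). Kcna1, a Shaker-type pore of neurons, was 1.47 lower in CiCM than in MEF (adjusted p = 0.0432), a call lost in 7 of 9 fits that left out an array, with adjusted p up to 0.135, and in the fit with no line. Without CM replicate 1 it was also called lower in CM than in MEF, at -1.18, and without CM replicate 3 lower in CiCM than in CM, at -1.58.

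**Figure D4:**
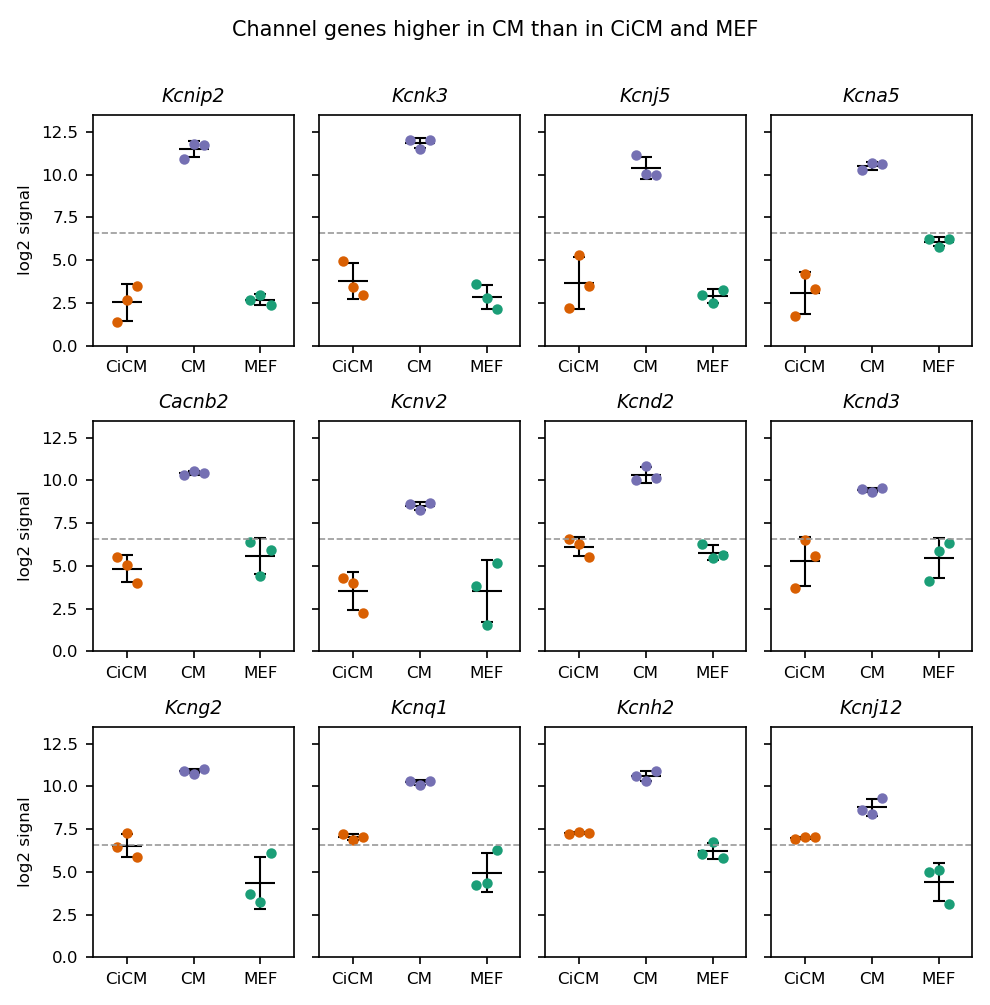
Log2 signal of 12 channel genes called higher in CM than in MEF and lower in CiCM than in CM, picked for display after their values were seen, on 3 CiCM, 3 CM and 3 MEF arrays (points), with group mean and SD (bars) and the line of 6.58 for testing (dashed). CiCM lie with MEF for Kcnip2, Kcnk3, Kcnj5, Cacnb2, Kcnv2, Kcnd2 and Kcnd3, below MEF for Kcna5, and between CM and MEF for Kcnq1, Kcnh2 and Kcnj12, while for Kcng2 one MEF array reaches above the lowest CiCM array.

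Cytoplasmic and single-span subunits of potassium channels numbered 12, with 6 tested, and 3 of these were lower in CiCM than in MEF. Kcnab1, a beta subunit of Shaker-type channels, read 6.62, 6.63 and 6.74 on CiCM arrays, 6.88, 7.01 and 6.88 on CM arrays and 9.09, 9.14 and 9.19 on MEF arrays. MEF stood above both other groups, CiCM being 2.47 ± 0.18 below MEF and CM 2.21 ± 0.18 below MEF (adjusted p = 1.23e-06 and 9.37e-07). Its relative Kcnab2 was 1.99 ± 0.74 lower in CiCM than in MEF (adjusted p = 0.0426), but that call was lost in 5 of 9 fits that left out an array, each a MEF or CiCM array, with adjusted p up to 0.12, and in the fit with no line. In CM it was called lower than in MEF without CM replicate 1, at -2.37, and CiCM were called lower than CM without CM replicate 3, at -1.20. Kcnip1, which pairs with transient outward pores in neurons, was 1.20 ± 0.39 lower in CiCM than in MEF (adjusted p = 0.0256), a call that ended with 32 added, at -0.83, and in 5 of 9 fits without an array. Kcne4, a single-span subunit that damps delayed rectifiers, read 9.95, 10.07 and 9.66 on CiCM arrays, 7.46, 7.99 and 8.25 on CM arrays and 9.21, 9.46 and 9.44 on MEF arrays. CM lay below both, by 1.47 ± 0.20 from MEF (adjusted p = 6.52e-05), and CiCM were 1.99 ± 0.20 above CM (adjusted p = 9.12e-06).

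Inward rectifiers numbered 15, of which 7 were tested. In CM 4 were higher than in MEF, among them both pores of the acetylcholine-gated current and Kcnj12, a pore of the current that holds the resting potential. Kcnj12 read 6.91, 7.02 and 7.02 on CiCM arrays, 8.65, 8.37 and 9.32 on CM arrays and 4.99, 5.14 and 3.14 on MEF arrays. The groups did not overlap. CiCM lay 2.56 ± 0.50 above MEF (adjusted p = 0.00163; 1.50 with 32 added) and 1.80 ± 0.50 below CM (adjusted p = 0.00941). The call against CM was lost with levelling on the hybridisation controls. Kcnj2, the better known pore of that current, read 0.10, 5.14 and 1.92 on CiCM arrays, 1.91, 1.01 and 3.06 on CM arrays and 0, 1.82 and 0 on MEF arrays, and was not tested. Kcnj5, of the acetylcholine-gated pair of atria and nodes, read 2.21, 5.28 and 3.46 on CiCM arrays, 11.15, 10.01 and 9.99 on CM arrays and 2.96, 2.46 and 3.24 on MEF arrays. CM lay 7.50 ± 0.75 above MEF (adjusted p = 5.95e-06), or 7.11 without CM replicate 1, and CiCM 6.73 ± 0.75 below CM (adjusted p = 1.97e-05). With the mean over probe sets these Kcnj5 differences were 4.46 and -3.61. Kcnj3, the other pore of the pair, read 3.11, 6.63 and 5.71 on CiCM arrays, 9.40, 8.33 and 8.21 on CM arrays and 6.32, 6.32 and 5.90 on MEF arrays. CM exceeded MEF by 2.47 ± 0.75 (adjusted p = 0.0127), or 2.09 without CM replicate 1. This call was lost with levelling on the hybridisation controls. The difference was 6.13 and 8.67 on the other Kcnj3 probe sets past the line, and 4.46 with the mean over probe sets. CM replicate 1 was the highest CM array for both pores, and atrial and nodal markers summed to 136148 on it against 7760 and 4734 on CM replicates 2 and 3. Their part in the result was not tested.

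The pores of ATP-sensitive channels differed from each other. Kcnj8, the pore known from vessels and heart, read 5.69, 5.71 and 5.67 on CiCM arrays, 10.54, 10.94 and 11.25 on CM arrays and 7.51, 7.62 and 7.62 on MEF arrays. CiCM were 1.89 ± 0.19 below MEF (adjusted p = 1.8e-05) and CM 3.33 ± 0.19 above MEF (adjusted p = 9.09e-08), with no overlap. The endothelial marker sums given above moved the same way in CM, and their part in this difference was not tested. Kcnj11, the pore known from heart and skeletal muscle, read 9.65, 10.22 and 9.86 on CiCM arrays, 9.92, 9.96 and 9.92 on CM arrays and 9.35, 9.34 and 9.57 on MEF arrays. CiCM and CM lay 0.49 and 0.51 above MEF, under the minimum of 1, while its other probe set was 3.26 higher in CM than in MEF. Kcnj11 was called higher in CM than in MEF, at 1.89, with the mean over probe sets. The regulatory subunits Abcc9 and Abcc8 were 3.41 ± 0.14 and 3.37 ± 0.63 higher in CiCM than in MEF (adjusted p = 2.23e-08 and 0.0012; 1.94 for Abcc8 with 32 added) and 5.59 ± 0.14 and 6.01 ± 0.63 higher in CM than in MEF (adjusted p = 2.96e-10 and 8.73e-06). Kcnj15, another inward rectifier, was 1.75 ± 0.41 higher in CiCM than in MEF (adjusted p = 0.00457), and its call against CM was lost without CM replicate 1, at 0.96.

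Leak channels of the 2-pore family numbered 12, with 5 tested, and 3 were lower in CiCM than in MEF. Kcnk3, an acid-sensitive leak channel of the heart, read 4.96, 3.45 and 2.93 on CiCM arrays, 12.02, 11.48 and 12.04 on CM arrays and 3.59, 2.77 and 2.14 on MEF arrays. CM lay 9.01 ± 0.57 above MEF (adjusted p = 1.82e-07), CiCM lay 8.07 ± 0.57 below CM (adjusted p = 7.87e-07), and CiCM and MEF overlapped. With the mean over probe sets CM lay 5.92 above MEF. Kcnk2, a channel opened by stretch, read 7.24, 6.60 and 6.51 on CiCM arrays, 5.41, 6.94 and 6.14 on CM arrays and 8.92, 8.59 and 8.38 on MEF arrays. MEF were highest, CiCM lying 1.85 ± 0.38 and CM 2.47 ± 0.38 below them (adjusted p = 0.00223 and 0.000176). Between CiCM and CM, the difference of 0.62 was called only without CM replicate 2, at 1.01. Kcnk1 followed the same order with CM lowest, at 7.08 ± 0.21 in CiCM, 5.44 ± 0.73 in CM and 8.68 ± 0.15 in MEF (SD, n = 3 each). It was 1.60 ± 0.35 lower in CiCM than in MEF and 3.24 ± 0.35 lower in CM than in MEF (adjusted p = 0.00316 and 1.09e-05).

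Calcium- and sodium-activated potassium channels numbered 11, of which 8 were tested, and CM had 4 higher and 4 lower than MEF. Kcnma1 encodes the pore of the large-conductance channel of smooth muscle and many other cells. Its RNA read 8.69, 9.18 and 9.10 on CiCM arrays, 1.58, 1.92 and 3.06 on CM arrays and 6.40, 6.46 and 6.47 on MEF arrays. CiCM lay 2.55 ± 0.48 above MEF (adjusted p = 0.00118) and 6.80 ± 0.48 above CM (adjusted p = 6.93e-07; 3.87 with 32 added and 3.54 with the mean over probe sets). CM lay 4.26 ± 0.48 below MEF (adjusted p = 1.4e-05; -1.69 with 32 added), but with the mean over its 5 probe sets the CM difference was -0.76 and not called (adjusted p = 0.308). Its auxiliary subunit in smooth muscle, Kcnmb1, read 5.40, 6.47 and 6.22 on CiCM arrays, 4.68, 3.11 and 5.39 on CM arrays and 7.69, 7.75 and 7.74 on MEF arrays. Unlike the pore it was lower in CiCM than in MEF, by 1.70 ± 0.58 (adjusted p = 0.0305), a call lost in 5 of 9 fits that left out an array, with adjusted p up to 0.102. CM were 3.33 ± 0.58 below MEF (adjusted p = 0.000394; -2.13 with 32 added), and CiCM 1.64 above CM. That last call ended with 32 added, with the mean over probe sets, and without CiCM replicate 2 or 3 or CM replicate 2. Smooth muscle markers summed to 25733 to 32074 on CiCM arrays, 6715 to 10697 on CM arrays and 51526 to 52646 on MEF arrays, and their part in these results was not tested.

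Kcnn4, the intermediate-conductance channel of fibroblasts and blood cells, read 5.59, 5.63 and 5.61 on CiCM arrays, 2.66, 4.47 and 2.21 on CM arrays and 6.94, 5.93 and 7.26 on MEF arrays. It was 3.60 ± 0.74 lower in CM than in MEF (adjusted p = 0.00126; -1.71 with 32 added), and 1.10 lower in CiCM than in MEF without passing the test (adjusted p = 0.235). Its difference of 2.5 between CiCM and CM was 0.93 with 32 added, where the call ended. Macrophage markers summed to 1282 to 1692 on CiCM arrays, 8356 to 10165 on CM arrays and 9198 to 9514 on MEF arrays, with 7 of 7 lower in CiCM than in MEF. Kcnn2, a small-conductance channel known in atria, read 5.05, 4.60 and 4.72 on CiCM arrays, 8.51, 8.24 and 8.75 on CM arrays and 5.22, 3.29 and 6.10 on MEF arrays. CM stood alone, 3.63 ± 0.63 above MEF (adjusted p = 0.000415), and CiCM were 3.71 ± 0.63 below CM (adjusted p = 0.000447). Kcnmb4, the auxiliary subunit of neurons, was 1.94 ± 0.65 lower in CM than in MEF (adjusted p = 0.0205; -1.26 with 32 added), a call lost without MEF replicate 2, while without CM replicate 2 the value was -1.03. Its call for CiCM against CM, at 1.71, was lost in 7 of 9 such fits, with adjusted p up to 0.123.

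Chloride channels and exchangers numbered 7, with 5 tested. Clcn5, a chloride and proton exchanger of endosomes, read 9.37, 8.64 and 10.12 on CiCM arrays, 9.14, 8.79 and 8.54 on CM arrays and 11.73, 11.84 and 11.44 on MEF arrays. MEF stood above both, CiCM being 2.29 ± 0.31 and CM 2.85 ± 0.31 below them (adjusted p = 0.000132 and 1.09e-05). Its other probe sets past the line gave -0.94, -0.18 and -0.99 between CiCM and MEF, and the mean over probe sets gave -1.10. With that mean CiCM were also called above CM, at 1.71 (adjusted p = 0.000224), against 0.56 and no call with the chosen probe set. Clcn3, another endosomal exchanger, averaged 9.61 ± 0.24 in CiCM, 11.37 ± 0.14 in CM and 9.27 ± 0.15 in MEF (SD, n = 3 each), and CM exceeded MEF by 2.10 ± 0.14 (adjusted p = 2.54e-07). That difference was 1.24 with the mean over probe sets. Clcn1, which carries the resting chloride conductance of skeletal muscle, read 3.59, 5.46 and 3.58 on CiCM arrays, 7.13, 3.90 and 4.85 on CM arrays and 3.74, 5.62 and 3.27 on MEF arrays and was not tested. Its CiCM arrays did not lie above those of the other groups, although the skeletal muscle markers did.

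Sets of channels known from a tissue were written from general knowledge, with earlier results of these data known, and counted in the same fit. Of all tested genes, 11.6% were called higher and 12.2% lower for CiCM against MEF. The shares were 22.1% and 21.8% for CM against MEF, and 16.5% and 19% for CiCM against CM. Of the 60 tested channel genes they were 28.3% and 18.3%, 43.3% and 18.3%, and 26.7% and 36.7%. Of 23 channels known in heart muscle 20 were measured and 18 tested. CiCM had 5 of these higher and 2 lower than MEF, while CM had 15 higher than MEF. The median difference of the 18 tested heart channels was 0.49 for CiCM minus MEF, 4.37 for CM minus MEF and -3.42 for CiCM minus CM. Over all tested genes the median was -0.03 in each comparison. Some of the 18, such as Kcnip2 and Kcnk3, passed the line only through CM, so these medians describe the genes that passed. Against CM, 14 of the 18 were lower in CiCM and only Cacna1g was higher. The 5 heart channels higher in CiCM than in MEF were Cacna2d1, Kcnh2, Kcnj12, Kcnq1 and Scn4b, and the 2 lower ones were Kcna5 and Kcnj8. Of 11 channels known in skeletal muscle 9 were measured and 5 tested, and Cacng6, Kcna7, Kcnc1 and Kcnc4 were higher in CiCM than in MEF. Kcnn2, the fifth, differed by -0.08 (adjusted p = 0.925). CM had Kcna7, Kcnc4 and Kcnn2 higher than MEF. Against CM, CiCM had Cacng6, Kcnc1 and Kcnc4 higher and Kcnn2 lower. The medians of the 5 were 3.33 for CiCM minus MEF, 2.33 for CM minus MEF and 2.91 for CiCM minus CM. Cacng6, Kcnc1 and Kcnc4 passed the line only through CiCM, and Kcnn2 only through CM, so these values describe the genes that passed. Kcne3, Kcng4 and Kcnn3 of this set were below the line in every group. All 7 channels known in fibroblasts or smooth muscle were tested, with 4 lower and Kcnma1 higher in CiCM than in MEF, and 5 lower and Clcn3 higher in CM than in MEF.

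Other genes of ion transport and channel anchoring were counted the same way, from a list of 65 of which 56 were measured and 48 tested. This list was also chosen with earlier results of these data known, and it holds muscle markers counted above, among them Ryr1 and Ryr2. CiCM had 22 higher and 4 lower than MEF, CM had 19 higher and 5 lower than MEF, and CiCM had 17 higher and 18 lower than CM. These were 45.8% and 8.33%, 39.6% and 10.4%, and 35.4% and 37.5% of the 48, against 11.6% and 12.2%, 22.1% and 21.8%, and 16.5% and 19% of all tested genes. Some of the 48 passed the line only through their high group, so these shares describe the genes that passed. With no line, the counts over the 56 were 23 and 4, 19 and 6, and 18 and 19. The shares of all 18193 genes were then 8.52% and 8.76%, 16.7% and 15.7%, and 12% and 14.2%. The medians of the 48 were 0.90, 0.77 and -0.23, against -0.03 for all tested genes in each comparison. Ryr1, the calcium release channel of skeletal muscle, read 12.54, 12.66 and 13.01 on CiCM arrays, 1.64, 2.61 and 1.40 on CM arrays and 3.18, 3.93 and 3.21 on MEF arrays. Its cardiac counterpart Ryr2 read 4.93, 4.71 and 5.94 on CiCM arrays, 13.91, 14.16 and 14.34 on CM arrays and 4.35, 5.65 and 5.18 on MEF arrays. In CiCM Ryr1 was 9.30 ± 0.45 above MEF (adjusted p = 8.24e-08), while the CiCM and MEF arrays overlapped for Ryr2, with a difference of 0.13 ± 0.37 (adjusted p = 0.794). Chrna1 and Chrng, subunits of the acetylcholine receptor of muscle, were 7.29 ± 0.22 and 7.08 ± 0.65 higher in CiCM than in MEF (adjusted p = 2.73e-09 and 8.4e-06), and the calcium pump Atp2a1 was 6.53 ± 0.28 higher (adjusted p = 3.02e-08). Fxyd1, a regulator of the sodium pump, was 6.32 ± 0.24 higher in CM than in MEF (adjusted p = 4.19e-09). Lower in CiCM than in MEF were the gap junction gene Gjc1, by 2.83 ± 0.16, the calcium release channel Itpr3, by 2.63 ± 0.59, and the cation channels Trpc1 and Trpv2, by 2.38 ± 0.34 and 1.47 ± 0.27.

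Across the 3 comparisons, the calls that kept their side of both thresholds whichever array was left out numbered 21 of 28 between CiCM and MEF, 33 of 37 between CM and MEF and 32 of 38 between CiCM and CM. Named after their values were seen, Kcnh3 and Kcnt1 were among those that did not. Kcnh3 was 1.22 higher in CiCM than in MEF, a call lost without CiCM replicate 2 or 3 or MEF replicate 1 or 2. Kcnt1 was 1.26 higher in CM than in MEF, and without 5 of the 9 arrays in turn its adjusted p reached 0.138.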

How the data were processed

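Total RNA of 9 samples was amplified with a 3' kit, labelled with biotin and hybridised to 1-colour Affymetrix arrays, per the labels' protocols. As deposited, the values are log2 signals of 45101 probe sets, and the submitters' processing notes name MAS5 with no version. The genome build, scan dates and detection calls are not given in the sources used here. A trimmed mean of the linear signals of about 500.003 on each array fits global scaling. The table was used as deposited. Probe sets were named through the platform annotation, which can be old: 34945 had 1 symbol and 932 several, which were not used. Of the channel genes, 47 had 1 probe set and 75 several.

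All 9 arrays were fitted together with limma (version 3.58.1, R 4.3.3; 2-sided, with a variance trend and no covariates), with Benjamini-Hochberg adjustment over the 12559 genes whose highest group mean reached 6.58. The labels call the samples biological replicates, without naming animals or cultures. The p-values judge group differences against the spread within groups of these samples, and the population to which they apply is not known. With 3 arrays in each group, the smallest p of an exact permutation test would be 0.1. The number of arrays limits the precision. The fit was tested on simulated data with 200 changed genes. No table column was left unassigned to a sample.

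Named channel genes are 41 known from heart, skeletal muscle, fibroblasts or smooth muscle, of which 36 were measured, and the 10 highest and 10 lowest called in each comparison without overlap between arrays, and the largest called in each family. The other list gives up to 4 genes per comparison and direction, and others are named as chosen after their values were seen. The channel genes, the lists and the rule for names were chosen with earlier results of these data known. Alternatives were 32 or 128 added to the linear signals, quantile normalization, no filter or one at the 75th percentile (8.91), centring on array medians, levelling on 18 hybridisation control probe sets, the mean over probe sets, fits of only the 2 groups compared, no minimum difference, a replicate block, and leaving out each array. Promoter sequences are from RefSeq on GRCm38.p6, with windows for 43 of the 60 tested channel genes.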

Additional observations from a re-analysis of the deposited data

How the results depend on the processing

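Of the numbers of channel genes called, 17 higher and 11 lower (CiCM against MEF) became 9 and 4 with the larger constant added to the linear signals and 8 and 5 with a filter at the 75th percentile, which tests fewer genes. For CM against MEF, 26 higher became 15 with that filter, and 11 lower became 6 with that constant, 4 with that filter, 17 with levelling on hybridisation controls and 7 with the mean over probe sets. For CiCM against CM, 16 higher became 7 with that constant, 5 with that filter and 10 with the mean over probe sets, and 22 lower became 14 with that filter. Leaving out single arrays gave 14 to 17 higher and 7 to 11 lower for CiCM against MEF, with 7 lower without MEF replicate 1, MEF replicate 3 or CiCM replicate 1. The ranges were 25 to 27 and 9 to 12 for CM against MEF, and 13 to 16 and 21 to 22 for CiCM against CM. For the other genes of ion transport, 4 lower in CiCM than in MEF became 1 with that filter and 9 with no minimum difference. Their 5 lower in CM than in MEF became 2 with that constant, 3 with that filter, 8 with centring, 13 with levelling, 3 with the mean over probe sets and 9 with no minimum difference, and 18 lower in CiCM than in CM became 10 with that filter. With the mean over probe sets some channel genes, among them Kcnd1, Kcnn4, Kcnc1 and Scn2a, were also no longer tested. Among those still tested, Kcnma1 alone lost its call for CM against MEF and Kcnmb1 alone for CiCM against CM. Apart from the filters and these dropped genes, the cause of these changes was not tested. The other counts stayed within 1.5 times. Over 3441 values of single channel genes under an alternative, 130 lost a call and 59 gained one, and 0 called values changed sign, while uncalled values near 0 could turn. With the replicate number as a block, the channel counts were 17 and 10, 25 and 11, and 16 and 22. Deviations of same-numbered arrays correlated at -0.016 to 0.067, so the numbers were not used as pairs. Low signals limit precision, since differences against signals far below the line shrink when a constant is added.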
